A study of Mus musculus with 25 samples.

Results

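RNA-seq counts of BMDMs stimulated with IFN-γ-primed LPS for 12 h were compared directly with those stimulated for 4 h. The comparison rests on 6 of the 25 samples of the series, 3 at each time, chosen by their labels alone. BMDMs are macrophages grown from the bone marrow of C57BL/6 mice, here for 4 days in 25 ng/ml M-CSF, and both groups received 100 U/ml IFN-γ and 100 ng/ml LPS. The other groups of the time course gave the levels before and after this interval, and each also holds 3 samples: unstimulated control BMDMs, and BMDMs after 1 h and after 24 h of the same stimulus. By its label the control was cultured for 4 h, and it is the only one, so the time of stimulation and the time in culture cannot be told apart between 4 h and 12 h. By the study's methods the 3 samples of a group are biological replicates from separate RNA preparations, and the sources used here do not say how many mice gave the cells.

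LPS, a cell wall component of Gram-negative bacteria, binds Toll-like receptor 4 on macrophages and switches on NF-κB, MAP kinase and IRF3 signalling. IFN-γ prepares the same cells for stronger killing and antigen presentation. The first genes to respond encode cytokines, chemokines and transcription factors. Many of them are switched off again by inhibitors that the same signal induces, while secreted factors such as interferon-β drive later genes.

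Sense-strand counts summed to 2378639 to 2507553 per sample at 4 h and to 2516675 to 2903776 at 12 h. Rn45s, the ribosomal RNA precursor, took 27.4% to 36.8% of them at 4 h and 23.7% to 32.6% at 12 h and was removed, which left 1502618 to 1796271 and 1751350 to 2077653 counts. In a PCA that used 500 genes with the highest variance, the smallest distance between a 4 h and a 12 h sample was 33.4, while the largest distance within a group was 1.49 at 4 h and 3.62 at 12 h. Within the 12 h group, replicate 3 stood apart, with 4.53 and 3.62 times the sampling variance per gene against replicates 1 and 2. Those 2 differed by 1.30 times. Replicate 1 stood apart in a like way at 4 h, with 3.29 and 3.71 times where replicates 2 and 3 differed by 1.87 times. At 24 h the values for replicate 1 were 3.03 and 3.91, against 1.85. Markers of macrophages were present in every sample, and their summed level was 19270 to 21210 CPM (TMM-normalized counts scaled to library size) at 4 h and 17790 to 21010 CPM at 12 h. All 5 T cell markers were at 0, and those of B, NK, erythroid and mast cells summed to at most 2.10 CPM in any 4 h or 12 h sample. The 7 neutrophil markers summed to 33.4 to 46.0 CPM at 4 h and 25.2 to 26.3 CPM at 12 h with Elane and Mpo at 0, the 5 dendritic cell markers to 13.2 to 16.6 and 3.64 to 6.45 CPM with Flt3 and Siglech at 0. The 3 endothelial markers summed to 29.2 to 37.98 and 44.0 to 51.0 CPM with Tek at 0, and the 6 stromal markers to 59.1 to 97.2 and 51.5 to 66.3 CPM. The part of these markers in the results was not tested.

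The step from 4 h to 12 h moved the transcriptome in both directions. Of the 9568 genes tested, 498 (5.2%) were called higher at 12 h and 426 (4.45%) lower, where a call required an FDR (Benjamini-Hochberg) of 0.01 or less in the quasi-likelihood test of edgeR together with a log2 fold change of 1.5 or more in size. At the same FDR and any size of change, which is what "rose" and "fell" stand for here, 1596 genes (16.7%) rose and 1841 (19.2%) fell. The counts of the gene lists below are to be read beside these shares. Scaling by library size alone in place of TMM moved the median log2 fold change of all genes by 0.22, and the split became 2430 rising and 1276 falling genes, with 671 called higher and 311 lower. The values below are relative to TMM. The samples of the groups did not overlap for 915 of the 924 called genes, against 51.4% of all genes tested. The calls rest on the same samples, so this difference follows largely from the calls and is no separate support for them. No count was found at 4 h in any sample for 13 of the genes called higher, and none at 12 h for 5 of those called lower.

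**Figure D1:**
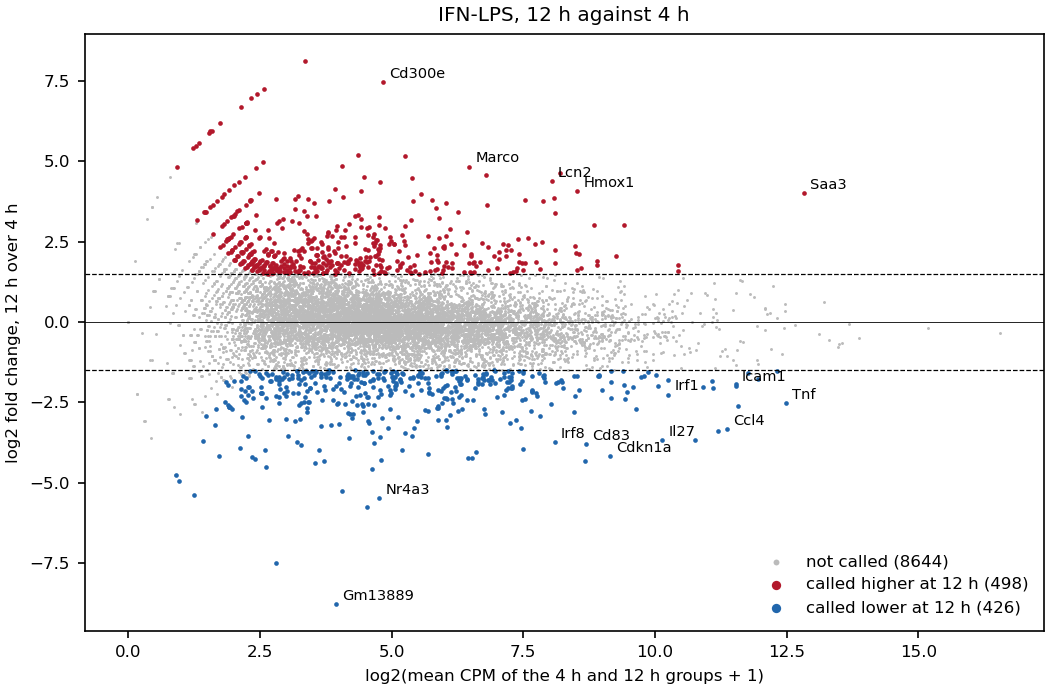
Each point is a gene, with the log2 of its mean CPM over both groups on the x axis and its log2 fold change of 12 h over 4 h on the y axis, and the dashed lines mark 1.5 in either direction. The 498 red genes were called higher and the 426 blue genes lower, and Saa3 combined a high level with a log2 fold change of 4.00.

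Among called genes with at least 20 CPM in the higher group and no overlap between samples, the 15 with the lowest log2 fold change were Gm13889, Tmem200b, Nr4a3, Cish, Col27a1, Ifnb1, Tmem37, Rhob, Klf8, Tnfsf9, Pdgfb, Cdkn1a, Phldb1, Edn1 and Rdh12. Gm13889, a predicted gene at chr2:93955810-93957201 on mm10, had 30.1, 27.1 and 29.2 CPM at 4 h and no count in any 12 h sample. Against a floor of 3 counts per library, it was at least 17.7-fold lower at 12 h. The 12 h means of Tmem200b, Nr4a3, Cish, Ifnb1, Tmem37 and Rdh12 were also under that floor, which was 1.63 CPM at 12 h. The sizes of their changes rest on few counts. Nr4a3, an orphan nuclear receptor, stood at 51.4, 40.3 and 62.1 CPM at 4 h and 0.526, 1.17 and 1.56 CPM at 12 h (log2 fold change -5.48 ± 0.36, FDR 4.20e-17). Every 12 h sample lay far below every 4 h sample, near the control mean of 0 CPM. Cdkn1a, which encodes the cell cycle inhibitor p21, had 1115, 1037 and 1072 CPM at 4 h and 67.8, 58.7 and 49.95 CPM at 12 h (log2 fold change -4.19 ± 0.11, FDR 4.13e-32). Rhob, a small GTPase of the cytoskeleton, passed from 831, 805 and 688 CPM to 34.7, 41.1 and 40.6 CPM (log2 fold change -4.32 ± 0.12, FDR 7.29e-32), which placed all 12 h samples under the control mean of 244 CPM. Edn1, the precursor of the vasoconstrictor endothelin-1, had 163, 185 and 193 CPM at 4 h and 12.1, 10.6 and 9.88 CPM at 12 h (log2 fold change -4.05 ± 0.19, FDR 1.90e-23).

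The 15 genes with the highest log2 fold change by the same rule were Cd300e, Siglece, Hp, Treml4, Marco, March1, Pilra, Pilrb1, Abi3, Lcn2, Dgat2, Napepld, Hmox1, Pilrb2 and Saa3. Cd300e, an immunoglobulin-like receptor of myeloid cells at chr11:115051917-115062177 on mm10, had 0, 0 and 0.731 CPM at 4 h and 42.6, 54.6 and 68.2 CPM at 12 h (log2 fold change 7.47 ± 0.47, FDR 2.29e-18). It was also near 0 in control and at 1 h, with means of 0.830 and 0.728 CPM, and reached 120.5 CPM at 24 h. The 4 h means of Cd300e, Siglece, Hp, Treml4, Pilrb1 and Napepld lay under the floor of 2.21 CPM (3 counts per library). The sizes of their changes rest on few counts. Siglece, an inhibitory receptor for sialic acids, had 0, 0.695 and 2.19 CPM at 4 h and 38.4, 32.3 and 43.7 CPM at 12 h (log2 fold change 5.19 ± 0.39, FDR 1.55e-15). Marco, a scavenger receptor for bacteria, passed from 4.75, 6.95 and 5.85 CPM to 145, 142 and 222 CPM (log2 fold change 4.83 ± 0.22, FDR 4.55e-20) and reached a mean of 637 CPM at 24 h. March1, a ubiquitin ligase that removes MHC class II and CD86 from the cell surface, differed from these in its earlier course. Its mean was 52.3 CPM in control, and it had 16.6, 24.3 and 27.0 CPM at 4 h and 471, 483 and 733 CPM at 12 h (log2 fold change 4.62 ± 0.21, FDR 3.44e-14). Abi3, a regulator of actin, also stood below its control mean of 46.6 CPM at 4 h, with 4.75, 3.47 and 2.19 CPM, and had 63.6, 69.8 and 102 CPM at 12 h (log2 fold change 4.49 ± 0.27, FDR 4.17e-19). Pilra, Pilrb1 and Pilrb2, paired inhibitory and activating receptors encoded side by side, had log2 fold changes of 4.58, 4.52 and 4.08, but they are close copies of each other and reads may be split among them.

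**Figure D2:**
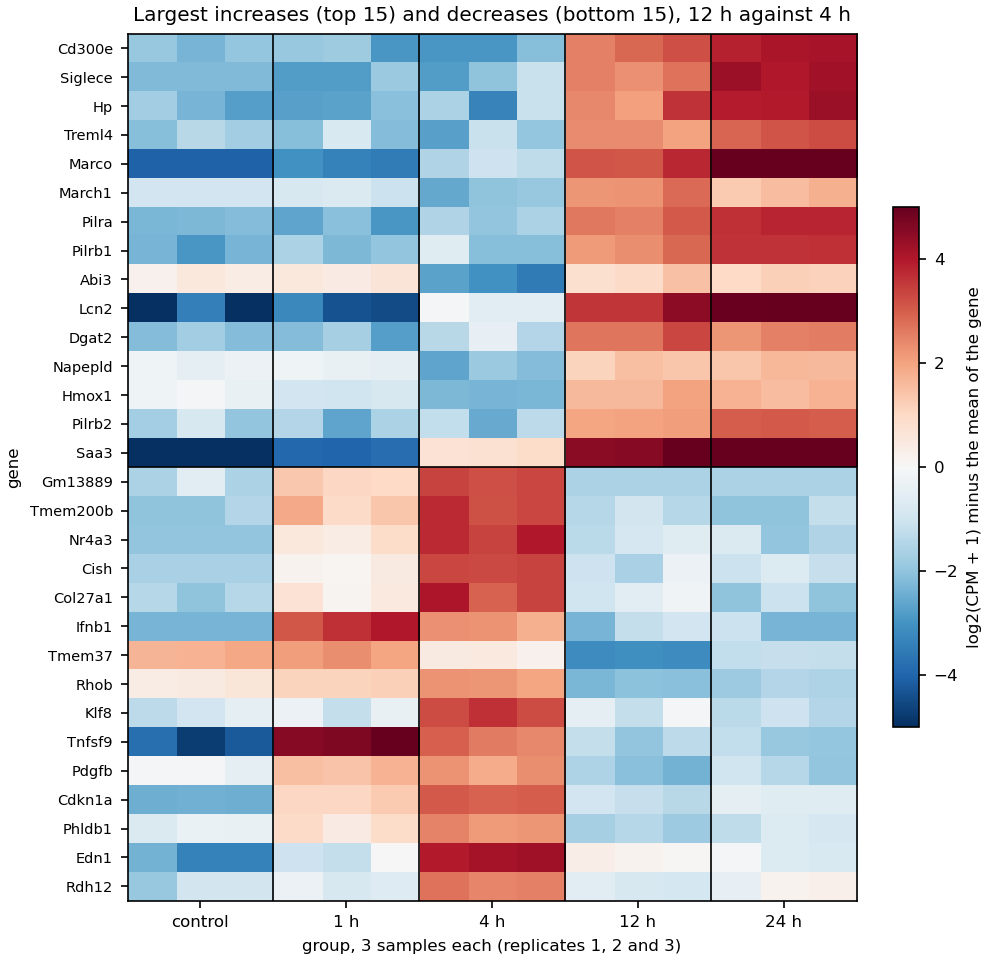
Rows are the 15 genes with the largest increases and the 15 with the largest decreases, columns are the 15 samples in 5 groups of 3, and colour gives log2(CPM + 1) minus the mean of the gene. The rows were chosen for no overlap between the 4 h and 12 h samples, so those columns differ in every row by selection. Replicate 3 at 12 h is the darkest of its group for Hp, Lcn2 and Marco.

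Most cytokine genes were lower at 12 h. Of 21 tested, 14 fell and 2 rose, and the median log2 fold change was -1.11 against 0.02 over all genes. Tnf had 9965, 10140 and 9221 CPM at 4 h and 1713, 1844 and 1496 CPM at 12 h (log2 fold change -2.54 ± 0.0882, FDR 5.88e-28). The groups were far apart, yet the 12 h samples remained well above the control mean of 26.1 CPM. Il27, which restrains T cell responses, fell from 2312, 2032 and 1934 CPM to 175, 169 and 144 CPM (log2 fold change -3.69 ± 0.11, FDR 8.37e-27), and Tnfsf15 had a log2 fold change of -3.67. Il23a, a subunit of IL-23, had a mean of 12.0 ± 1.80 CPM at 4 h and no count at 12 h, at least 7.37-fold lower against the same floor. Ifnb1, which encodes interferon-β, had 22.9, 22.2 and 16.1 CPM at 4 h and 0, 1.17 and 1.56 CPM at 12 h (log2 fold change -4.40 ± 0.57, FDR 4.31e-07). Its mean was 61.0 CPM at 1 h, and that at 12 h, 0.911 CPM, lay under the floor of 1.63 CPM. Il6 fell from 572, 650.4 and 614 CPM to 268, 246 and 156 CPM (log2 fold change -1.46 ± 0.17, FDR 2.21e-06), and Il15, a growth factor for NK and memory T cells, had a log2 fold change of -2.81.

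The interleukin-1 and interleukin-12 genes took other courses. Il1b had 5993, 6983 and 6969 CPM at 4 h and 6309, 6100 and 6240 CPM at 12 h, and the samples overlapped (log2 fold change -0.10 ± 0.10, FDR 0.461). Il1a fell (log2 fold change -0.84 ± 0.10, FDR 1.59e-08), while Il1rn, which encodes the antagonist of both, rose from 1783, 2081 and 1795 CPM to 3993, 3891 and 5795 CPM (log2 fold change 1.27 ± 0.14, FDR 5.30e-07). Il12b, the shared subunit of IL-12 and IL-23, had 2609, 2777 and 2943 CPM at 4 h and 5595, 5443 and 3132 CPM at 12 h (log2 fold change 0.77 ± 0.20, FDR 0.00695). Replicate 3 at 12 h lay well below the other samples of its group, and without it the log2 fold change was 1.00. Il12b did not pass in 11 of the 25 alternatives, among them each that left out a 4 h sample or replicate 1 or 2 at 12 h. Its partner Il12a fell (log2 fold change -0.75 ± 0.21, FDR 0.00277) but did not pass in 6 of the 25 alternatives. Among them were DESeq2 (-0.77), library size alone (-0.53), and those without replicate 1 or 2 at 4 h or replicate 3 at 12 h. Inhba, which encodes activin A, rose (log2 fold change 0.80 ± 0.17, FDR 2.66e-04). Il10, the main anti-inflammatory cytokine, had 20.6, 32.0 and 26.3 CPM at 4 h and 18.9, 16.4 and 44.7 CPM at 12 h, and the samples overlapped (log2 fold change 0.03 ± 0.31, FDR 0.949). Replicate 3 was the highest 12 h sample of Il10, and without it the log2 fold change was -0.57.

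Among chemokines, 9 of 18 fell and 2 rose, with a median log2 fold change of -0.57. Several that fell attract neutrophils. Cxcl1 had 333, 351 and 332 CPM at 4 h and 19.5, 31.1 and 15.6 CPM at 12 h (log2 fold change -3.96 ± 0.16, FDR 7.17e-23), and Cxcl2 had 884, 995 and 989 and 212, 205 and 136 CPM (log2 fold change -2.38 ± 0.16, FDR 2.26e-10). Both had their highest mean at 1 h, 559.8 and 1275 CPM. Ccl4, which attracts monocytes and T cells, fell from 5173, 4704 and 4529 CPM to 436, 407 and 593 CPM (log2 fold change -3.33 ± 0.14, FDR 2.02e-14). Ccl3 also fell (log2 fold change -1.60 ± 0.11, FDR 6.70e-15). Cxcl10, which attracts T cells through CXCR3, had 1925, 1831 and 1934 CPM at 4 h and 514, 530.4 and 581 CPM at 12 h (log2 fold change -1.81 ± 0.0922, FDR 1.22e-21), whereas Cxcl9, a ligand of the same receptor, did not pass the test (log2 fold change -0.24 ± 0.10, FDR 0.0531). In contrast, Ccl5 rose from 3024, 2315 and 2211 CPM to 4504, 4214 and 5070 CPM (log2 fold change 0.87 ± 0.0967, FDR 3.69e-10), with no overlap between the groups. Ccl22, a ligand of CCR4, rose as well (log2 fold change 1.15 ± 0.18, FDR 1.58e-05).

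**Figure D3:**
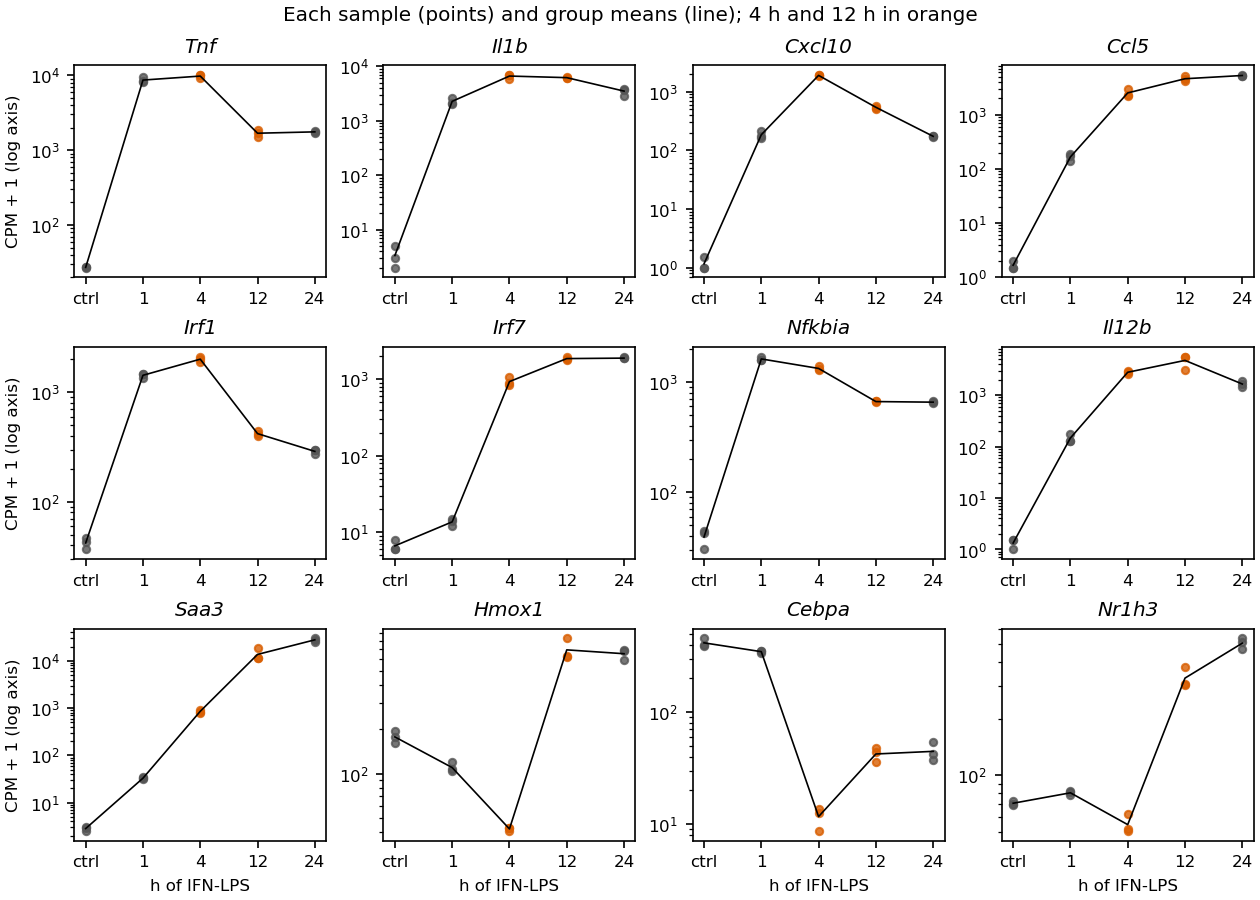
Points are the CPM + 1 of each sample on a log axis against the time of IFN-γ-primed LPS, ctrl is the unstimulated control, and lines join the 5 group means for 12 genes. Tnf, Cxcl10, Irf1 and Nfkbia fell from 4 h to 12 h, Ccl5, Irf7, Saa3 and Nr1h3 rose, Il1b did not pass the test, and Hmox1 and Cebpa rose from 4 h levels under those of control.

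The promoters of several of these genes hold the letters of a κB site, which NF-κB binds, or of an interferon-stimulated response element (ISRE), which IRF and STAT complexes bind. The windows below show these letters in capitals with the flanking bases, because the first 4 precede genes that fell and the Saa3 window precedes a gene that rose. All are from RefSeq on GRCm38.p6, printed 5′ to 3′ on the strand of the gene, and the κB letters searched were GGGA, any base and TTTCC, and the ISRE letters were GAAA, any 2 bases and GAAA, on either strand.
Cxcl1: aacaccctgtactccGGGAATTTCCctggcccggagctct
Cxcl2: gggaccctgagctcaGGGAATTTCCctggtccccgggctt
Il6: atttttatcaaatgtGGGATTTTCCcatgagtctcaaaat
Cxcl10: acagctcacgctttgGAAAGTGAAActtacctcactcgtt
Saa3: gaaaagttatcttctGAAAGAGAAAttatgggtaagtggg
The Cxcl1 window is at chr5:90891159-90891198 (plus strand), with the first capital at -71 from the start site. The Cxcl2 window is at chr5:90903787-90903826 (plus strand, -97), and the capitals of both are the same letters. The Il6 window is at chr5:30013055-30013094 (plus strand, -44). The Cxcl10 window is at chr5:92349078-92349117 (minus strand, -213) and the Saa3 window at chr7:46715777-46715816 (minus strand, -125). Over the promoters, taken from 250 bases before to 50 bases after the start site, the κB letters stood in 5 of 326 promoters of genes called lower (1.53%), in 1 of 384 of genes called higher (0.26%) and in 0.581% of the 7396 promoters matched to all genes tested. The 5 were Cxcl1, Cxcl2, Cxcl3, Csf1 and Ccr3, and the 1 was Il16, all named after their values were seen. The 3 Cxcl genes all lie on chromosome 5. Ccr3 had means of 4.79 CPM at 4 h and 0.694 CPM at 12 h, and Il16 had 0 and 3.76 CPM. Of 23 alternatives that tested them, Ccr3 did not pass in 5 and Il16 in 2. For the other motifs the shares follow in the same order. ISRE letters stood in 3.68%, 4.95% and 4.14% of the promoters of genes called lower, called higher and tested, the GAS letters TTCNNNGAA in 8.59%, 7.29% and 8.36%, and the AP-1 letters TGANTCA in 10.1%, 8.59% and 6.19%. The sterol response letters TCACNCCAC stood in 1.23%, 2.08% and 1.38%, E2F letters TTTGGCGC in 0%, 1.04% and 1.3%, E-box letters CACGTG in 13.2%, 12.2% and 12.5%, and CCAAT in 39%, 43% and 42.4%. A match is a description of these letters, not of a bound site.

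Inhibitors of the response did not all follow the cytokines. Of 33 tested feedback inhibitors, 20 fell and 4 rose, with a median log2 fold change of -0.77. Tnfaip3, which encodes the ubiquitin-editing enzyme A20, fell from 3542, 3371 and 3293 CPM to 954, 946 and 924 CPM (log2 fold change -1.85 ± 0.0877, FDR 7.09e-23). Nfkbia, the inhibitor IκBα that NF-κB itself induces, fell from 1395, 1275 and 1303 CPM to 668, 666 and 651 CPM (log2 fold change -1.0 ± 0.0875, FDR 1.55e-13), which left it above the control mean of 38.2 CPM. Cish, an inhibitor of STAT5 signalling, had 30.1, 29.9 and 31.4 CPM at 4 h and 0.526, 0 and 1.56 CPM at 12 h (log2 fold change -5.27 ± 0.43, FDR 2.27e-14), and the calcineurin inhibitor Rcan1 also fell (log2 fold change -2.70 ± 0.14, FDR 9.11e-22). The 12 h mean of Cish, 0.696 CPM, lay under the floor of 1.63 CPM. In contrast, Irak3, a kinase-like brake on Toll-like receptor signalling, rose from 64.1, 40.3 and 38.7 CPM to 194, 210.1 and 232 CPM (log2 fold change 2.16 ± 0.13, FDR 1.62e-18). Dusp6, a phosphatase of ERK, had 4.75, 2.08 and 8.04 CPM at 4 h, under its control mean of 33.8 CPM, and 45.8, 42.8 and 53.6 CPM at 12 h (log2 fold change 3.26 ± 0.28, FDR 5.87e-14). The mRNA decay factor Zfp36 fell (log2 fold change -1.16 ± 0.20, FDR 3.78e-05), and Zfp36l2 rose (log2 fold change 1.45 ± 0.30, FDR 1.44e-04).

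Of 33 Toll-like receptor and NF-κB components, 14 fell and 3 rose (median -0.29), and 9 of 21 immediate early factors fell and 2 rose (median -0.54). With library size alone, the first list had 12 falling and 6 rising (median -0.07) and the second 9 falling and 4 rising (median -0.32). The NF-κB subunit genes Nfkb1, Rel and Rela had log2 fold changes of -2.11, -2.06 and -1.95. Nfkb1 had 639, 575 and 626 CPM at 4 h and 166, 165 and 96.8 CPM at 12 h (log2 fold change -2.11 ± 0.12, FDR 1.22e-16). Ripk2, the kinase downstream of NOD receptors, fell from 356, 352 and 338 CPM to 45.8, 49.3 and 56.7 CPM (log2 fold change -2.78 ± 0.12, FDR 1.42e-24). Tlr2 fell (log2 fold change -1.44 ± 0.10, FDR 4.72e-15) and Tlr1 rose (log2 fold change 1.12 ± 0.12, FDR 2.53e-10), while Tlr4, the LPS receptor, had means of 61.5 ± 9.48 and 78.1 ± 20.9 CPM and did not pass (log2 fold change 0.35 ± 0.17, FDR 0.0902). Among the early factors, Junb, a component of AP-1, fell from 1411, 1197 and 1168 CPM to 495, 523 and 568 CPM (log2 fold change -1.25 ± 0.0886, FDR 1.42e-16), and Maff, Klf4 and Klf6 fell by 2.69, 2.29 and 1.52 on the log2 scale. Fos, Egr1 and Nr4a1 had means of 0.751, 0.739 and 0.495 CPM at 4 h, under the floor of 2.21 CPM (3 counts per library), and did not pass. Fos rose and passed in 6 of the 23 alternatives that tested it, such as that of all genes with at least 1 count (log2 fold change 2.53).

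The interferon-regulatory and STAT factors divided. Of 15 tested, 8 fell and 3 rose (median -0.44). Irf1, the first interferon-γ-induced factor of the family, fell from 2036, 2124 and 1877 CPM to 402, 416 and 439 CPM (log2 fold change -2.26 ± 0.0889, FDR 6.08e-26). Irf8, a lineage factor of monocytes and dendritic cells, had 528, 499 and 496 CPM at 4 h and 33.7, 38.1 and 42.1 CPM at 12 h (log2 fold change -3.74 ± 0.12, FDR 2.34e-29), and all 12 h samples lay below its control mean of 88.8 CPM. Stat5a fell from 419, 396 and 373 CPM to 49.95, 60.4 and 45.8 CPM (log2 fold change -2.93 ± 0.14, FDR 9.11e-19). By contrast, Irf7, which amplifies type I interferon responses, rose from 1062, 892 and 832 CPM to 1814, 1785 and 1969 CPM (log2 fold change 1.00 ± 0.0875, FDR 1.54e-13), and its 24 h mean was 1882 CPM. Batf rose as well (log2 fold change 1.10 ± 0.15, FDR 3.38e-08).

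Antiviral interferon-stimulated genes went both ways, with 21 of 46 falling and 14 rising (median -0.27). With library size alone the balance turned, to 15 falling and 17 rising (median -0.05). Among those that fell, Ifih1, the RNA sensor MDA5, had 1154, 1141 and 1193 CPM at 4 h and 277, 259 and 235 CPM at 12 h (log2 fold change -2.18 ± 0.0894, FDR 3.32e-25). Cmpk2, a mitochondrial nucleotide kinase, had 7297, 8058 and 7304 and 2234, 2204 and 3355 CPM (log2 fold change -1.54 ± 0.14, FDR 5.58e-08), and its neighbour Rsad2, the antiviral enzyme viperin, also fell (log2 fold change -1.30 ± 0.10, FDR 7.27e-13). Daxx fell as well (log2 fold change -1.36 ± 0.11, FDR 3.42e-15). Among those that rose, Ifi44 had 143, 139.7 and 143 CPM at 4 h and 504, 526 and 802 CPM at 12 h (log2 fold change 2.10 ± 0.14, FDR 5.03e-13), and Bst2, the tether of budding virus, had 434, 349 and 363 and 838, 847 and 1051 CPM (log2 fold change 1.26 ± 0.0964, FDR 2.03e-15). Isg20, an exonuclease, and Ifitm3, a block to viral entry, rose by 1.45 and 0.99. Ifit1 fell by 0.87, and Ifit3 did not pass (log2 fold change 0.16 ± 0.0956, FDR 0.176). The oligoadenylate synthetase genes Oas2 and Oas3 rose by 0.77 and 0.86 on the log2 scale.

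Of the 19 GTPases that attack pathogen vacuoles, 9 fell and 1 rose (median -0.37), and none changed by a log2 fold change of 1.5 or more. Gbp5 fell from 5092, 5983 and 5318 CPM to 2257, 2414 and 2530 CPM (log2 fold change -1.19 ± 0.0883, FDR 7.43e-16), and Iigp1 and Gm12250 fell by 1.16 and 1.02. Gbp2 had means of 2406 ± 53.2 CPM and 2144 ± 147 CPM and did not pass (log2 fold change -0.17 ± 0.0861, FDR 0.111). The GBP and Tgtp genes are close copies, and reads may be split among them.

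Of 7 genes tested of MHC class II, which presents antigen to CD4 T cells, 5 fell and none rose (median -0.42), and 2 fell with library size alone or when only the 4 h and 12 h samples were fitted. Ciita, the master activator of the class, fell from 79.1, 81.3 and 63.6 CPM to 37.9, 46.4 and 14.1 CPM (log2 fold change -1.21 ± 0.24, FDR 3.13e-04), and H2-DMa, which loads peptides, also fell (log2 fold change -1.21 ± 0.12, FDR 3.13e-12). Ciita did not pass when only the 4 h and 12 h samples were fitted (-1.16). Without replicate 3 at 12 h its log2 fold change was -0.83. Cd74, the invariant chain, had 4929, 4724 and 4453 CPM at 4 h and 3986, 4070 and 3872 CPM at 12 h and lay just outside the FDR limit (log2 fold change -0.24 ± 0.0800, FDR 0.0112). Of 21 genes of class I, which presents to CD8 T cells, 9 rose and 5 fell (median 0.24), or 13 and 2 with library size alone. H2-T10 and H2-Q4, which belong to a family of close copies, rose by 1.24 and 0.92, and the immunoproteasome subunit Psmb8 rose (log2 fold change 0.78 ± 0.15, FDR 3.46e-05). The class I activator Nlrc5 fell from 996, 834 and 840.4 CPM to 479.6, 478 and 534 CPM (log2 fold change -0.84 ± 0.0898, FDR 5.71e-11), and the peptide transporter Tap1 fell (log2 fold change -0.59 ± 0.0889, FDR 2.87e-07).

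Of 15 costimulatory and adhesion genes, 10 fell and 3 rose (median -1.14). Cd83, a marker of mature antigen-presenting cells, had 734, 802 and 764 CPM at 4 h and 60.0, 55.1 and 48.9 CPM at 12 h (log2 fold change -3.81 ± 0.11, FDR 1.51e-31), and its mean at 24 h was 13.2 CPM. The integrin ligand Icam1 fell from 4992, 4640 and 4554 CPM to 1159, 1217 and 1211 CPM (log2 fold change -1.98 ± 0.0870, FDR 3.93e-24). Cd40 and Cd80, which engage receptors on T cells, fell by 1.44 and 1.67. Cd274, which encodes the inhibitory ligand PD-L1, rose (log2 fold change 0.40 ± 0.10, FDR 0.00167). It did not pass without replicate 2 or 3 at 4 h or replicate 3 at 12 h. Slamf1, a self-ligand receptor that also senses Gram-negative bacteria, rose from 4.75, 8.34 and 11.7 CPM to 49.4, 62.8 and 84.8 CPM (log2 fold change 2.97 ± 0.26, FDR 2.77e-12).

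By number of genes, not by share, host-defence effectors were the list with the most calls in the upward direction. The share that rose was 52.6% here and 64.7% in the smaller list of NRF2 antioxidant genes. Of 38 tested, 20 rose, 11 of them called higher, and 4 fell (median 0.59). Saa3, an acute-phase serum amyloid at chr7:46711998-46715700 on mm10, had 808, 839 and 924 CPM at 4 h and 11270, 11470 and 18410 CPM at 12 h (log2 fold change 4.00 ± 0.15, FDR 3.06e-15). Its mean was 1.83 CPM in control, 32.0 CPM at 1 h and 27940 CPM at 24 h. Hp, haptoglobin, which binds free haemoglobin, had 2.37, 0 and 3.65 CPM at 4 h and 51.5, 41.1 and 123 CPM at 12 h (log2 fold change 5.16 ± 0.77, FDR 1.92e-04). Its 4 h mean of 2.01 CPM lay under the floor of 2.21 CPM. Lcn2, which withholds iron by binding bacterial siderophores, had 29.3, 20.9 and 21.9 CPM at 4 h and 384, 384 and 727 CPM at 12 h (log2 fold change 4.38 ± 0.34, FDR 7.21e-07). For all 3 genes replicate 3 was the highest 12 h sample, and without it the log2 fold changes were 3.73, 4.53 and 4.01.

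Other effectors rose beside them. Cfb, complement factor B, rose from 168, 144 and 134 CPM to 1136, 1111 and 1389 CPM (log2 fold change 3.03 ± 0.11, FDR 2.82e-27). Ptges, the synthase that makes prostaglandin E2, rose from 45.9, 52.8 and 43.1 CPM to 414, 412 and 669 CPM (log2 fold change 3.40 ± 0.18, FDR 1.07e-12), whereas Ptgs2, which makes its substrate, fell from 5345, 6815 and 6292 CPM to 1926, 1971 and 1429 CPM (log2 fold change -1.79 ± 0.15, FDR 7.97e-09). The pair therefore had opposite changes over the same interval. Fpr1 and Fpr2, receptors for bacterial formyl peptides, rose by 3.63 and 2.25, and Cd38, an enzyme that consumes NAD, rose from 24.5, 27.8 and 21.9 CPM to 279.8, 298 and 448 CPM (log2 fold change 3.78 ± 0.18, FDR 9.79e-17). Nos2, which makes nitric oxide, had 447, 329 and 418 CPM at 4 h and 402, 429.5 and 410.0 CPM at 12 h (log2 fold change 0.06 ± 0.21, FDR 0.849), and its 24 h mean was 73.2 CPM. Irg1, the itaconate synthase, fell (log2 fold change -0.77 ± 0.0921, FDR 1.42e-09), and the arginine transporter Slc7a2 rose (log2 fold change 0.89 ± 0.0792, FDR 2.97e-13).

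Genes of the antioxidant response rose, and several of them had stood below control at 4 h. Of 17 tested NRF2 targets, 11 rose, 6 of them called higher, and 2 fell, and the median log2 fold change was 1.20. Hmox1, the haem-degrading enzyme, had a control mean of 177 CPM, 41.9, 39.6 and 41.6 CPM at 4 h and 626, 622 and 829.8 CPM at 12 h (log2 fold change 4.08 ± 0.13, FDR 2.05e-29). At 4 h it lay below control (log2 fold change of 4 h over control -2.10 ± 0.14, FDR 2.35e-18). All 12 h samples exceeded control as well as 4 h. Gclm and Gclc, the subunits that make glutathione, rose by 1.67 and 1.74. Gclm had a control mean of 70.6 CPM, 40.4, 38.2 and 21.9 CPM at 4 h and 103, 120.3 and 97.3 CPM at 12 h. Gsr, which regenerates glutathione, had a control mean of 43.8 CPM, 38.0, 33.4 and 34.4 CPM at 4 h and 135, 147 and 155 CPM at 12 h (log2 fold change 2.05 ± 0.14, FDR 5.33e-17). The thiol peroxidase Prdx1 and the ferritin chain Fth1 rose by 1.20 and 1.12. Sqstm1, an autophagy receptor, fell (log2 fold change -0.95 ± 0.0919, FDR 3.47e-12).

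Macrophage identity genes went both ways, with 11 of 36 rising and 12 falling. With library size alone 13 rose and 9 fell, and the median of -0.15 became 0.07. Cebpa, a lineage factor of myeloid cells, had a control mean of 414 CPM, 12.7, 7.64 and 11.7 CPM at 4 h and 42.6, 46.4 and 34.9 CPM at 12 h (log2 fold change 1.95 ± 0.22, FDR 2.14e-10). At 4 h it was below control (log2 fold change of 4 h over control -5.28 ± 0.16, FDR 3.01e-31), and at 12 h it remained below it in every sample. Maf rose from 46.7, 50.7 and 52.6 CPM to 202, 195 and 316 CPM (log2 fold change 2.25 ± 0.15, FDR 1.28e-15), above its control mean of 139 CPM. Nr1h3, the oxysterol receptor LXRα, rose from 60.9, 49.3 and 50.4 CPM to 301, 306 and 377 CPM (log2 fold change 2.62 ± 0.12, FDR 1.79e-23), against 69.9 CPM in control. Among the receptors that fell, C5ar1 for complement C5a passed from 821, 864 and 794 CPM to 191, 156 and 220.1 CPM (log2 fold change -2.13 ± 0.0991, FDR 4.15e-23). Trem2, a lipid receptor, fell (log2 fold change -1.54 ± 0.0916, FDR 3.49e-19), Mertk, which clears dead cells, fell (log2 fold change -1.34 ± 0.13, FDR 2.23e-12), and Csf1r, the M-CSF receptor, did not pass (log2 fold change 0.03 ± 0.11, FDR 0.837).

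Of 14 LXR targets, 6 fell and 1 rose (median -0.55), and the 1 was the cholesterol exporter Abca1 (log2 fold change 1.13 ± 0.10, FDR 1.08e-12). Apoe fell from 14380, 14330 and 13620 CPM to 8858, 9202 and 8344 CPM (log2 fold change -0.68 ± 0.0829, FDR 1.89e-09), and Arl4c fell (log2 fold change -2.58 ± 0.27, FDR 2.84e-11). Of 23 cholesterol synthesis and uptake genes, 6 fell (26.1%) and 4 rose (17.4%), against 19.2% and 16.7% of all genes tested. Their median of -0.05 became 0.17, with 2 falling, with library size alone. Lss, Mvd and Hsd17b7 rose by 1.51, 1.33 and 1.15, while Insig1 fell (log2 fold change -0.97 ± 0.11, FDR 2.58e-10). Of 41 lysosomal genes, 20 fell and 6 rose (median -0.32), which became 12 and 10 with library size alone. The proteases Ctsd and Ctsb fell by 0.65 and 0.51. Tfeb, the activator of lysosome genes, had a control mean of 45.1 CPM, 2.37, 3.47 and 4.38 CPM at 4 h and 22.6, 28.8 and 24.4 CPM at 12 h (log2 fold change 2.85 ± 0.32, FDR 3.02e-10). Mitf, a factor of the same family, fell (log2 fold change -1.20 ± 0.10, FDR 3.82e-14), and the sialidase Neu1 rose (log2 fold change 1.67 ± 0.13, FDR 1.03e-15).

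Of 12 circadian clock genes, 4 rose and 2 fell (median 0.67). Per1, a repressor of the clock, had a control mean of 14.8 CPM, 0.791, 1.39 and 0 CPM at 4 h and 9.47, 5.28 and 5.72 CPM at 12 h (log2 fold change 3.11 ± 0.64, FDR 7.39e-05). All 4 h values of Per1 lay under the floor of 2.21 CPM. Tef, a clock output factor, had a control mean of 90.7 CPM, 15.8, 17.4 and 8.77 CPM at 4 h and 44.2, 37.5 and 54.6 CPM at 12 h (log2 fold change 1.70 ± 0.22, FDR 6.37e-09). Arntl, the clock activator BMAL1, fell (log2 fold change -1.54 ± 0.32, FDR 1.04e-04), as did Nfil3 (log2 fold change -1.64 ± 0.23, FDR 4.66e-08). Since 4 h and 12 h samples also differ in time in culture, the clock genes are given as values only.

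The integrated stress and unfolded protein response declined, with 17 of 29 genes falling and 2 rising (median -0.65). Chac1, which degrades glutathione, had 57.0, 38.2 and 41.6 CPM at 4 h and 2.10, 5.28 and 2.60 CPM at 12 h (log2 fold change -3.77 ± 0.31, FDR 1.72e-14), and Trib3 had 36.4, 27.1 and 32.9 and 4.21, 4.69 and 3.12 CPM (log2 fold change -2.98 ± 0.30, FDR 7.60e-12). Both are targets of ATF4. Atf4 fell from 534, 575 and 529.8 CPM to 239, 262 and 331 CPM (log2 fold change -0.98 ± 0.10, FDR 1.84e-11), the chaperone Hspa5 fell (log2 fold change -0.92 ± 0.0957, FDR 2.65e-11), and the asparagine synthetase Asns fell (log2 fold change -1.81 ± 0.13, FDR 2.47e-16). Herpud1 and Sesn2 fell by 1.95 and 2.15.

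Among 25 cell death regulators, 8 fell and 5 rose (median 0.16), the latter 3 without replicate 3 at 12 h or with DESeq2. With library size alone the balance turned, to 6 falling and 8 rising (median 0.38). Bcl2l11, which encodes the death-promoting BIM, had 117, 116 and 124 CPM at 4 h and 15.2, 11.2 and 10.4 CPM at 12 h (log2 fold change -3.27 ± 0.17, FDR 4.46e-21), under its control mean of 120.2 CPM. Its relative Bmf had no count at 4 h and a mean of 4.65 ± 2.38 CPM at 12 h, at least 2.10-fold higher against the floor of 3 counts per library. The survival gene Bcl2a1b fell (log2 fold change -1.40 ± 0.10, FDR 9.48e-15) but has close copies, of which Bcl2a1d fell and Bcl2a1a did not pass. Casp1, the inflammasome protease, rose (log2 fold change 0.97 ± 0.11, FDR 5.44e-10).

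Of 69 respiratory chain genes, 2 rose and 2 fell, and the median of -0.04 became 0.18 with 13 rising when scaled by library size alone. Of 17 TCA cycle genes, 3 fell (17.65%) and 1 rose (5.88%), against 19.2% and 16.7% of all genes tested. Their median was -0.13, or 0.09 with library size alone. Of 24 glycolysis and hypoxia genes, 9 rose and 6 fell (median 0.22). Pfkp, the platelet-type phosphofructokinase, fell from 248, 237 and 268 CPM to 66.3, 54.0 and 60.9 CPM (log2 fold change -2.05 ± 0.13, FDR 1.69e-18), while the liver type Pfkl rose (log2 fold change 1.11 ± 0.11, FDR 1.19e-11). Pfkfb3, which makes their activator, rose (log2 fold change 1.03 ± 0.15, FDR 7.40e-06). Of 36 replication and mitosis genes, 3 fell and 1 rose (median -0.19, or 0.03 with library size alone). The 4 were Mki67 (log2 fold change -1.79 ± 0.19, FDR 7.24e-09), Ccne1 (log2 fold change -2.29 ± 0.26, FDR 3.06e-10), Pcna (log2 fold change -1.17 ± 0.11, FDR 8.45e-13) and E2f1 (log2 fold change 1.91 ± 0.23, FDR 9.91e-10), of which only E2f1 rose. Of 30 ribosome biogenesis factors, 5 fell (16.7%) and 4 rose (13.3%), both below the shares of all genes tested (median 0.29). These counts became 2 and 9 with library size alone. With 1 sample left out, the last 4 became 1 without replicate 2 at 4 h and 2 without replicate 1 at 12 h, and the 5 became 2 without replicate 3 at 4 h and 3 without replicate 2 or 3 at 12 h.

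**Figure D4:**
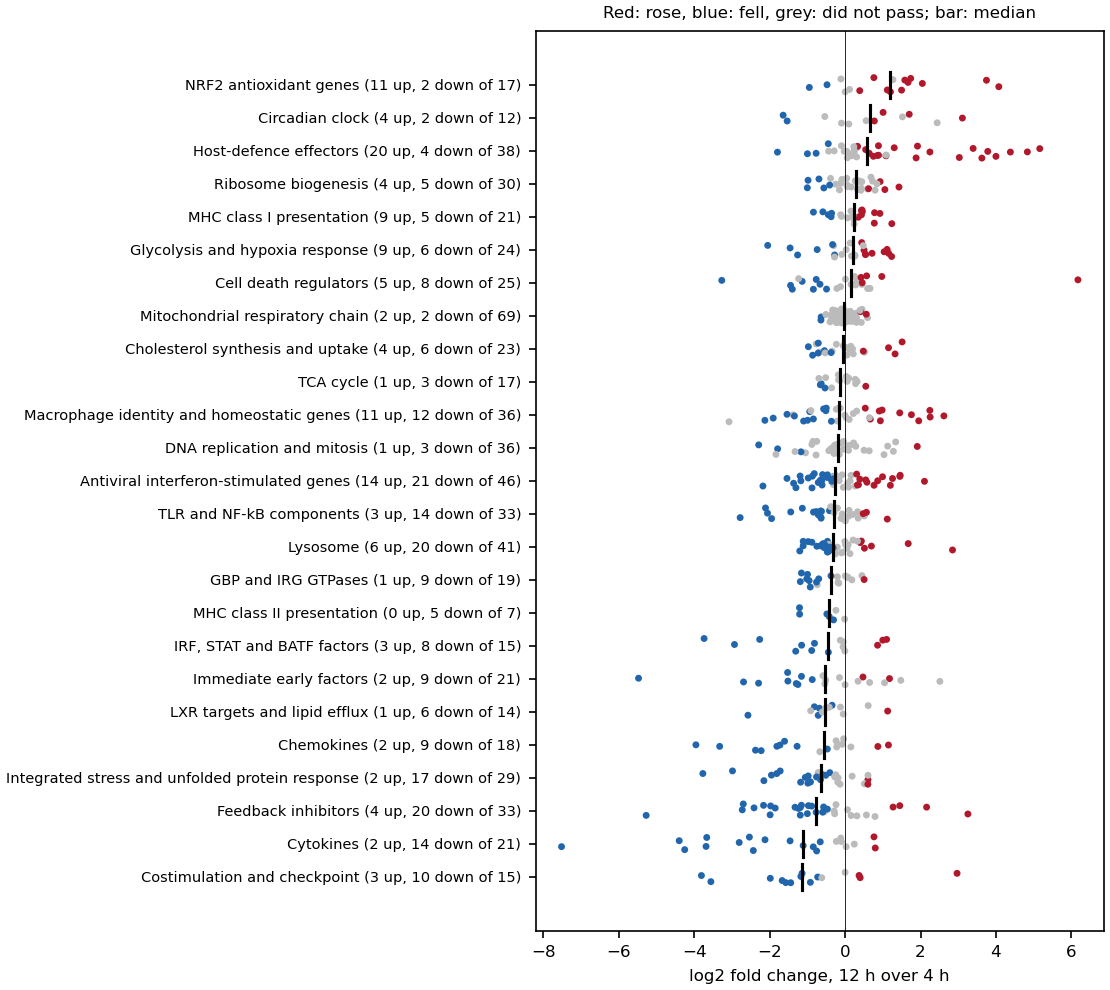
Each point is a tested member of one of 25 gene lists with its log2 fold change of 12 h over 4 h on the x axis, rows are sorted by the median (black bar), and up and down count the members that rose or fell. Costimulation, cytokines and feedback inhibitors have the lowest medians, -1.14, -1.11 and -0.77, and NRF2 antioxidant genes the highest, 1.20.

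The genes that had responded at 1 h, a time that shares no sample with 12 h or 4 h, were followed next. Over all genes tested, 4.45% were called lower at 12 h than at 4 h and 5.2% higher. Of 482 genes called higher at 1 h than in control, 123 (25.5%) were called lower at 12 h than at 4 h and 22 (4.56%) higher, the latter near the share of all genes. The median log2 fold change of the 482 was -0.73. Tnf, Cxcl1, Cd83, Irf1 and Tnfsf9 are among the 123. Of 199 genes called lower at 1 h than in control, 35 (17.6%) were called higher at 12 h than at 4 h and 13 (6.53%) lower, with a median of 0.40. The count of 35 was 63 with library size alone, 21 with DESeq2 and 23 without replicate 3 of the 1 h group. It was 4 when 10 counts were required in every 4 h and 12 h sample. With the size of change required for a call as the null hypothesis it was 1. The same 2 settings gave 74 and 52 in place of the 123. The 35 therefore rest largely on genes with under 10 counts in at least 1 of the 4 h and 12 h samples.

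**Figure D5:**
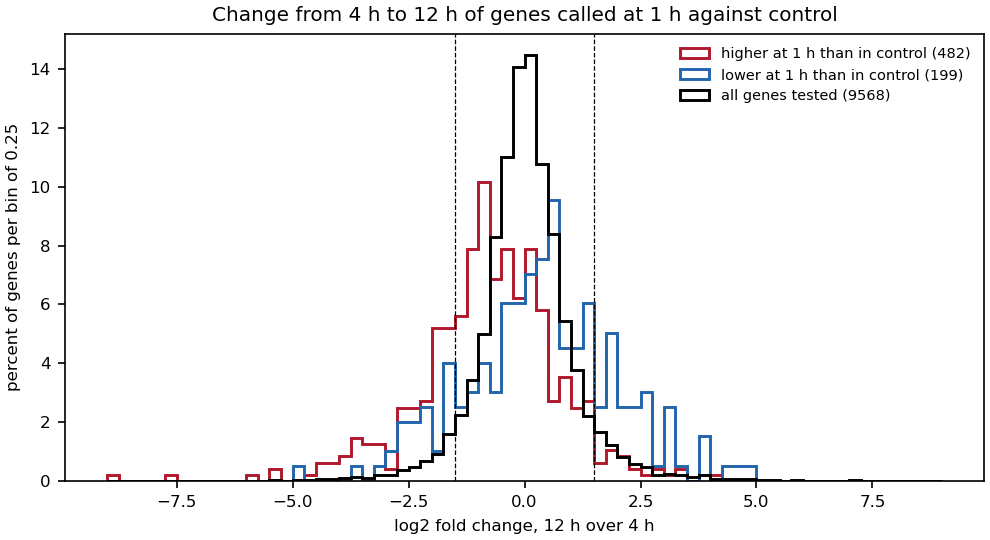
Histograms of the log2 fold change of 12 h over 4 h, in percent of genes per bin of 0.25, for the 482 genes higher at 1 h (red), the 199 lower at 1 h (blue) and all 9568 tested (black), with dashed lines at 1.5 in either direction. The red genes lie to the left of all genes, with a median of -0.73, and the blue genes to the right, with a median of 0.40.

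At 24 h, 759 genes (7.93%) were called higher than control and 663 (6.93%) lower, and these samples share none with the 4 h and 12 h groups. Of the 498 genes called higher at 12 h than at 4 h, 125 (25.1%) stood above control at 24 h, 39 (7.83%) below it, and 334 were called in neither direction. Saa3, Marco, Lcn2, Cfb and Cd300e are among the 125. Of the 426 called lower, 68 (16.0%) stood above control at 24 h, 111 (26.1%) below it, and 247 were called in neither direction. Tnf, with a 24 h mean of 1756 CPM, is one of the 68, and Rhob, with 57.0 CPM, one of the 111. In the 24 h samples the share of Rn45s counts on the opposite strand was 0.0104% to 0.0162%, against 0.0665% to 0.122% at 4 h and 12 h, and its part in these counts was not tested.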

How the data were processed

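The authors trimmed paired-end reads of rRNA-depleted, strand-marked libraries with Trimmomatic 0.33, aligned them to mm10 with STAR 2.5.1 and deposited raw whole-number read counts per gene, unstranded and for each strand, without normalization. The annotation release is not given in the sources used here. Counts on the gene's strand were used for 24411 gene symbols, and reads without a feature on that strand (64.8% to 67.2% of uniquely placed reads at 4 h and 12 h) were left out, as was Rn45s. At 1502618 to 2077653 counts per sample, weakly expressed genes were left untested or carry large errors.

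All 15 samples of the time course were fitted together in edgeR 4.0.16 (R 4.3.3) with filterByExpr by group, TMM and robust quasi-likelihood, 1 mean per group. Of the genes, 9568 were tested, each contrast with its own Benjamini-Hochberg adjustment. Values after ± are standard errors beside log2 fold changes (the absolute change over the square root of F) and SDs (n = 3) beside CPM. The self-test used simulated counts. Positions are from GENCODE M21 and promoters from RefSeq. DESeq2 1.42.0 served as an alternative beside other scalings, filters, strands, sample sets and leaving out each sample. PCA used log2 CPM with a prior count of 2. FDR values are adjusted p-values of the quasi-likelihood test of a contrast. The change was judged against the spread between samples of the same group, estimated over all 5 groups together and drawn towards that of other genes. The median prior degrees of freedom were 36, against 10 residual degrees of freedom. Small FDR values therefore rest in large part on the spread of other genes.

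Named genes were the 15 largest increases and decreases (called, at least 20 CPM, no overlap), up to 4 per list with the largest passing changes (at least 5 CPM), 15 fixed genes, and further list members shown for their range, and some of these are not reported here. The members, the 25 gene lists, the 10 marker lists and the rules were chosen with earlier results of these data known. IL-4, IL-13 and RAW264.7 samples were not used here. Tables and plots were made with Python 3.11.15, pandas 2.3.3 and matplotlib 3.10.9.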

Additional observations from a re-analysis of the deposited data

How the results depend on the processing

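With DESeq2's size factors, all genes with at least 1 count, unstranded counts or Rn45s kept, the 5 main counts stayed within 1.5 times of those reported, as did the genes called higher (390) and lower (354) with only the 6 samples, where the other 3 counts were not run. DESeq2 gave 21 and library size alone 63 genes repressed at 1 h and higher at 12 h, in place of 35. Requiring 10 counts in every 4 h and 12 h sample, which removes genes near 0 at either time, left 158 genes called higher and 232 lower, 74 induced at 1 h and lower, 4 repressed at 1 h and higher, and 62 late genes above control at 24 h. Testing against a log2 fold change of 1.5 as the null hypothesis left 128, 156, 52, 1 and 52. Without each sample in turn the counts were 444 to 510, 434 to 452, 118 to 126, 23 to 34 and 111 to 130, and the 23 came without replicate 3 at 1 h. The replicate numbers did not pair the 4 h and 12 h samples (correlations of the deviations 0.02, -0.04 and -0.07 for the same numbers), and a block for the replicate number gave 495 genes called higher and 427 lower. The log2 fold change changed sign for Il1b (0.12) and Gbp2 (0.0525) with library size alone, for Nos2 (-0.0779) and Csf1r (-0.0698) without replicate 2 at 4 h, for Csf1r (-0.0372) without replicate 1 at 12 h, and for Il10 without replicate 1 at 4 h (-0.12) or replicate 3 at 12 h (-0.57), none of which had passed. With 1 sample left out, these 3 genes ranged up to 0.14, 0.0978 and 0.27. Cd74 passed in 8 of 25 alternatives. The cause of these changes was not tested. With DESeq2 or library size alone, list counts beyond those given above moved by over 1.5 times only where at most 5 members were counted. With 1 sample left out, the count of a gene list moved by over 1.5 times only where at most 5 members were counted.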

Other observations

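Replicate 3 at 12 h lay further from the 4 h samples than the other 12 h samples did. In the PCA its distance to the centre of the 4 h group was 37.0, against 34.3 and 34.4. Of the 498 genes called higher at 12 h, it was the highest 12 h sample for 264, against 120 for replicate 1 and 114 for replicate 2. Of the 416 genes called lower whose 12 h values were all different, it was the lowest for 197, against 117 and 102. These genes were called with replicate 3 in the fit, and no such count was made over all genes tested. The counts therefore describe the called genes only, and why replicate 3 was often the extreme sample was not tested. Il10 and Il12b showed opposite departures in this sample. Il10 had 18.9, 16.4 and 44.7 CPM in replicates 1, 2 and 3 at 12 h, and Il12b had 5595, 5443 and 3132 CPM. Without replicate 3 at 12 h, 456 genes were called higher and 435 lower.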
